A study of Mus musculus with 6 samples.

Results

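The mitochondrial genome of the mouse carries 37 genes in GENCODE release 21, and 16 of the 26881 genes with a value in these heart libraries lay on it. They were taken by their position on chromosome MT and by a symbol beginning with mt-, and no expression value was used to choose them. They were all 13 messenger RNAs, both ribosomal RNAs (mt-Rnr1 and mt-Rnr2) and 1 of 22 transfer RNAs, mt-Tp, which carries proline. The other 21 transfer RNAs were not analysed here. RNA was sequenced from 3 heart samples of Cfp1-cKO mice and 3 of WT mice, all of 2 weeks of age. The Cfp1-cKO mice, whose samples carry the genotype CXXC1 null, were Myh6-Cre: Cfp1 flox/flox mice on C57BL/6, so that Cre, under the Myh6 promoter, removes Cfp1 in cardiomyocytes and not in the other cells of the heart. The WT mice carry the label Wild-type, and which alleles (floxed Cfp1, Cre) they carried is not stated for these samples. Cfp1, encoded by Cxxc1, binds unmethylated CpG sites and takes part in methylation of histone H3 at lysine 4. Cxxc1 itself had 8.02, 9.94 and 8.74 FPKM in Cfp1-cKO hearts, against 9.66, 12.9 and 10.03 FPKM in WT hearts, and it did not pass the test (-0.26 on the log2 scale, limma adjusted p = 0.249). FPKM are fragments scaled to the length of the gene and to the total of the library.

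Mitochondrial DNA is transcribed from both strands into long RNAs that are cut into separate RNAs, in many places at the transfer RNAs that lie between the genes. Its messenger RNAs encode only subunits of the respiratory chain and of ATP synthase, and its ribosomal RNAs build the ribosome that translates them inside the organelle. All other proteins needed for this, and most subunits of the same complexes, are encoded in the nucleus. Heart muscle is rich in mitochondria, and mitochondrial RNA is a large part of the RNA of a heart library.

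The libraries held between 16672655 and 22700806 fragments, worked back from the FPKM values. Whether a sample was 1 heart or a pool is not stated, so a p-value here reflects how much these 6 samples vary, which may be technical. The 10 cardiomyocyte markers summed to between 11883 and 14580 FPKM in Cfp1-cKO hearts, against 17891 to 21947 FPKM in WT hearts. Of these 10, 3 were called lower and 0 higher, where 1.68% and 21.1% of all genes tested were. The genotypes did not overlap for 3 of the 10, all lower, and overlapped for the others, among them Myh6 and Ttn. All 12 lung epithelial markers were called higher in Cfp1-cKO hearts. They summed to between 3363 and 5092 FPKM in Cfp1-cKO hearts, against 0.374 to 3.96 FPKM in WT hearts, and none was at 0 in all libraries. Sftpc, a defining marker of lung alveolar cells, was at 0, 0.330 and 0 FPKM in the WT libraries. The extraction text in the labels speaks of retinas, and the 3 photoreceptor markers with a value summed to at most 0.0578 FPKM in any library. The part of lung RNA, and of the smaller sum of cardiomyocyte markers, in the results for mitochondrial RNA was not tested. In such bulk samples, fewer cells of a type and less RNA per cell cannot be told apart.

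Much of the mitochondrial sequence also stands in the nuclear genome as annotated pseudogenes, and these bear on how the values can be read. The 7 closest copies lay side by side on chr1:24611535-24616197 (GRCm38, minus strand), a stretch of 4663 bases in the same order as chrMT:6381-11043. Their distance to the mitochondrial sequence was constant to within 1 base, and each was over 99% identical to its gene over the aligned bases. The beginning of mt-Nd3 (chrMT:9459-9538, plus strand) and of its copy Gm28438 (chr1:24613040-24613119, minus strand) is shown because it holds the single difference in the 345 aligned bases, T3C, counted from the first base of the gene and given in capitals.
mt-Nd3: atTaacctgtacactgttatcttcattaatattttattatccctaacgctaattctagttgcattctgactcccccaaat
Gm28438: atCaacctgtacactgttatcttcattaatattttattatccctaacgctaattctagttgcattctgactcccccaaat
A longer and more distant copy, Gm13340 on chromosome 2, aligned to all 1545 bases of mt-Co1 with 37 mismatches. Bases 733 to 812 of mt-Co1 (chrMT:6060-6139, plus strand) and of Gm13340 (chr2:22588836-22588915, minus strand) are among the stretches without a difference.
mt-Co1: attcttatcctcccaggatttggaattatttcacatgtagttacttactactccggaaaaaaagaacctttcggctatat
Gm13340: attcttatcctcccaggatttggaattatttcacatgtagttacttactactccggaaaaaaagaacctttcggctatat

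A pair of short members is shown whole, mt-Atp8, which was called lower in Cfp1-cKO hearts, and mt-Tp, the only transfer RNA with a value. mt-Atp8 (chrMT:7766-7969, plus strand, 204 bases) encodes the small ATP8 subunit of ATP synthase. The last 43 bases of the gene, in capitals, overlap the beginning of mt-Atp6, and they are also the only bases that aligned to an annotated nuclear transcript, Gm10925 on chromosome 1. The other bases of mt-Atp8 fall in a gap of 233 bases between the copies Gm10925 and Gm28661, which equals the 233 bases between the matching mitochondrial stretches, and the nuclear sequence of that gap was not read here. mt-Tp (chrMT:15356-15422, minus strand, 67 bases) is given with its anticodon in capitals.
mt-Atp8: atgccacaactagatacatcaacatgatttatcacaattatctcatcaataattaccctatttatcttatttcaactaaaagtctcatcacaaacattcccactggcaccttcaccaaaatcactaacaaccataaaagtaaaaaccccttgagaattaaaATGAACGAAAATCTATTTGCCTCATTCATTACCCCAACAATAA
mt-Tp: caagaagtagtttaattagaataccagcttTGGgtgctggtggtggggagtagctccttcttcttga

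The levels of the 13 messenger RNAs fell into 2 ranges that did not meet. The 6 genes that lie wholly within the stretch copied on chromosome 1 (mt-Co2, mt-Atp8, mt-Atp6, mt-Co3, mt-Nd3 and mt-Nd4l) were between 0.173 and 182 FPKM in all libraries. The other 7 were between 8723 and 123127 FPKM. The lowest mean of the 7 (mt-Nd6, 13833 FPKM over the 6 libraries) was 89.4 times the highest mean of the 6 (mt-Co2, 155 FPKM). The 6 genes together gave 0.152% of the summed FPKM of the messenger RNAs, averaged over libraries. The ribosomal RNAs and mt-Tp lie outside the copied stretch and were at 1266 FPKM or more in all libraries.

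**Figure D1:**
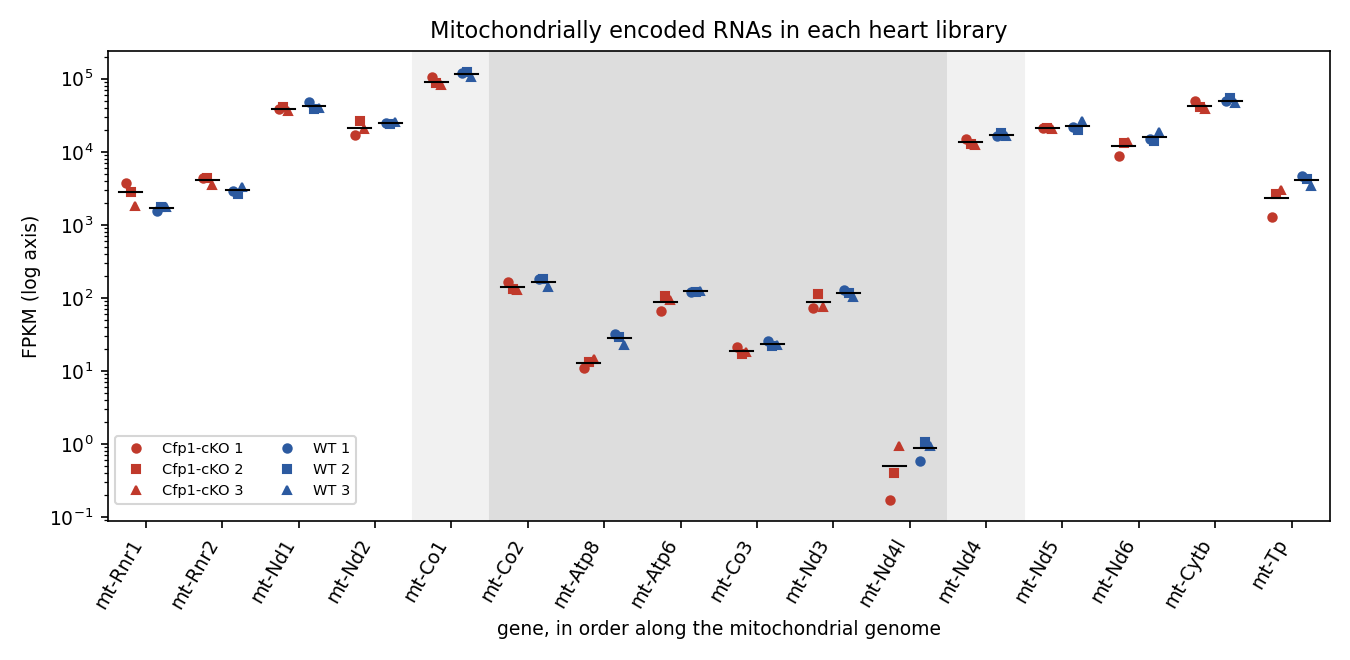
FPKM of the 16 mitochondrially encoded genes in each library on a log axis, in order along the genome, Cfp1-cKO (red) left of WT (blue), with a black line at the mean of each 3 libraries. Dark grey marks the 6 genes wholly inside the chromosome 1 copy, all at 182 FPKM or below, and light grey the 2 genes partly inside it, mt-Co1 and mt-Nd4.

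The low level went with shared sequence for 5 of these 6 genes. Of all windows of 100 bases in a gene, 99.9% were identical to a stretch of an annotated nuclear transcript for mt-Co3, 99.5% for mt-Co2 and mt-Atp6, 98.5% for mt-Nd4l and 97.6% for mt-Nd3. mt-Atp8, at 20.4 FPKM on average, shared 0% of its windows with the annotated transcripts and is the exception, with most of its bases opposite the unread gap. mt-Nd4, with 60.8% of its windows shared, and mt-Co1, with 30.8%, were at 15222 and 103945 FPKM. mt-Nd2 shared 3.19%, and no window was shared by the ribosomal RNAs, mt-Nd1, mt-Nd5, mt-Nd6 or mt-Cytb. How fragments that match both genomes were counted is not given in the sources used here, and its part in these levels was not tested. The FPKM of the 6 genes are therefore given as they stand, and differences in level between them and the other members are not read as differences in RNA.

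**Figure D2:**
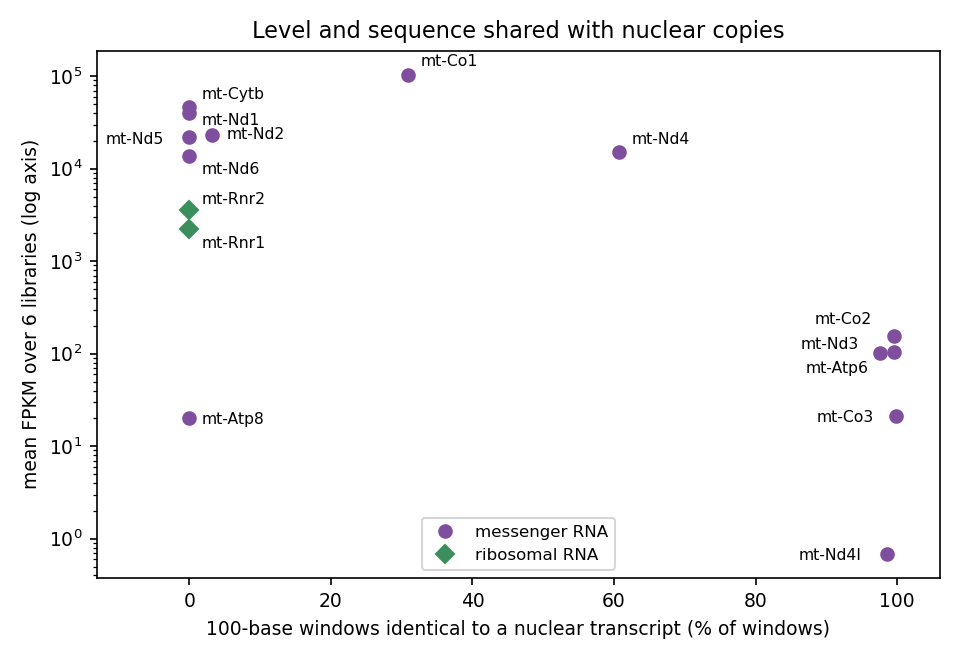
Mean FPKM over the 6 libraries (log axis) against the percent of 100-base windows identical to an annotated nuclear transcript, 1 point for each of 13 messenger RNAs (circles) and 2 ribosomal RNAs (diamonds). The 5 genes above 97% sit at 155 FPKM or below, and mt-Atp8 is low at 0%.

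The nuclear copies themselves had low values. The 7 copies on chromosome 1 were between 0 and 64.4 FPKM. Of these, 3 were called lower in Cfp1-cKO hearts, where 1.68% of all genes tested were, and they were named after their values were seen. The called copies were Gm28661 (copy of mt-Co2, log2 fold change -1.18, adjusted p = 0.00513 from limma), Gm29216 (end of mt-Co1, -0.97, adjusted p = 0.0282 from limma) and Gm28439 (beginning of mt-Nd4, -1.45 on the log2 scale, adjusted p = 0.0308 from limma). The others were not called, with log2 fold changes between -1.29 (Gm10222, copy of mt-Nd4l) and -0.15 (Gm28438, copy of mt-Nd3). Gm28437, the copy of mt-Co3, had 64.4, 2.07 and 3.90 FPKM in Cfp1-cKO hearts, against 6.81, 5.56 and 39.0 FPKM in WT hearts. It stood apart in 1 library of each genotype, while mt-Co3 did not.

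Messenger RNAs from the mitochondrial genome took a smaller share of the library in Cfp1-cKO hearts, while its ribosomal RNAs took a larger share. The 13 messenger RNAs gave 33.9%, 31.0% and 28.9% of fragments in Cfp1-cKO hearts, against 38.5%, 38.2% and 36.2% in WT hearts. The ribosomal RNAs gave 1.05%, 0.965% and 0.734% of fragments in Cfp1-cKO hearts, against 0.611%, 0.585% and 0.697% in WT hearts. The genotypes did not overlap in either class, and the ratio of means was 0.830 for the messenger RNAs and 1.45 for the ribosomal RNAs. Of all genes tested, 3.23% were lower in every Cfp1-cKO library than in any WT library. Another 46.4% were higher in every Cfp1-cKO library, so a larger share is not particular to the ribosomal RNAs. mt-Tp gave 0.00848%, 0.0178% and 0.02001% of fragments in Cfp1-cKO hearts, against 0.0316%, 0.0280% and 0.0226% in WT hearts, again without overlap. These shares are described without a test. The libraries were made with a TruSeq kit, which selects RNA with poly(A) tails, so the shares are of the RNA such a kit retains.

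**Figure D3:**
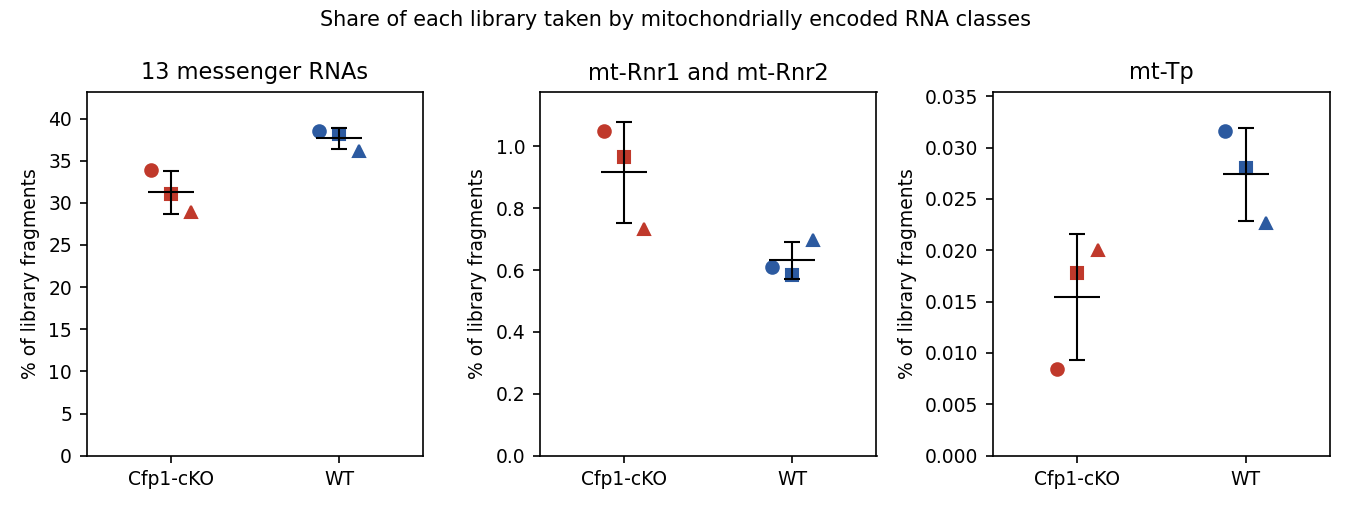
Percent of the fragments of each library in 13 messenger RNAs, 2 ribosomal RNAs and mt-Tp, Cfp1-cKO (red) left of WT (blue). Each symbol is 1 library, and bars give the mean and SD of 3 libraries. The classes differ in direction, with ratios of means of 0.830, 1.45 and 0.563.

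Gene by gene, the test called 1 of the 15 members with a mean of at least 1 FPKM, mt-Atp8, which was lower, and none was called higher. Over all 11017 genes tested, 1.68% were called lower and 21.1% higher. Calls needed a limma p below 0.05 after Benjamini-Hochberg adjustment and a change of more than 0.5 in either direction on log2(FPKM + 1). At an unadjusted p below 0.05, 3 members were lower (mt-Atp8, mt-Atp6 and mt-Tp) and 2 higher (mt-Rnr1 and mt-Rnr2), against 3.09% lower and 40.7% higher over all genes. The fold changes of all 12 tested messenger RNAs and of mt-Tp were below 0 on the FPKM as deposited, as were 16.4% of those of all genes, and 5 of these messenger RNAs turned to above 0 when divided by the sum of the mitochondrial messenger RNAs. The median over the 12 messenger RNAs was -0.31, against 0.35 over all genes. Voom on fragments worked back from the FPKM called 1 of 15 members lower and 0 higher as well, where it called 1.55% of 9214 genes lower and 23.3% higher.

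mt-Atp8 had 11.1, 13.2 and 14.7 FPKM in Cfp1-cKO hearts, against 31.7, 29.1 and 22.6 FPKM in WT hearts. These values rest on 44, 45 and 54 fragments in Cfp1-cKO libraries and 147, 112 and 83 fragments in WT libraries. The genotypes did not overlap, and the log2 fold change was -1.04 (standard error 0.18, 95% confidence interval -1.45 to -0.63, adjusted p = 0.0101 from limma). The overlap with mt-Atp6, the few fragments and the place of mt-Atp8 within the stretch copied on chromosome 1 limit this value. mt-Atp8 was called lower under all alternatives run, which all rest on these same fragments. mt-Atp6, which encodes the proton channel subunit of ATP synthase, had 65.8, 105.5 and 92.4 FPKM in Cfp1-cKO hearts, against 120, 121 and 126 FPKM in WT hearts. Every Cfp1-cKO value lay below every WT value, and the log2 fold change of -0.50 did not pass the test (adjusted p = 0.0826 from limma). Without Cfp1-cKO replicate 1 the log2 fold change of mt-Atp6 was -0.31. The ratio of mt-Atp8 to mt-Atp6 was 16.8%, 12.5% and 15.9% in Cfp1-cKO hearts, against 26.4%, 24.1% and 17.9% in WT hearts, and these groups did not overlap.

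The 3 core subunits of cytochrome c oxidase, complex IV, had log2 fold changes between -0.35 and -0.23, and none passed the test. mt-Co1, the member with the highest FPKM and the subunit that holds the site where oxygen is reduced, had 106207, 86289 and 82350 FPKM in Cfp1-cKO hearts, against 120675, 123127 and 105023 FPKM in WT hearts. Its groups overlapped by a narrow margin, through Cfp1-cKO 1 and WT 3, and limma gave a log2 fold change of -0.35 ± 0.19 (SE, adjusted p = 0.188). mt-Co2, which accepts electrons from cytochrome c, had 165, 133 and 129 FPKM in Cfp1-cKO hearts, against 179, 182 and 140 FPKM in WT hearts. mt-Co3 had 21.5, 17.1 and 18.4 FPKM in Cfp1-cKO hearts, against 25.3, 21.9 and 22.7 FPKM in WT hearts. Only mt-Co3 of these 3 had groups that did not overlap, and its log2 fold change was -0.28 (adjusted p = 0.173 from limma).

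mt-Cytb encodes cytochrome b, the only mitochondrially encoded subunit of complex III, and was the member with the next highest mean. It had 49070, 40862 and 38336 FPKM in Cfp1-cKO hearts, against 48918, 54387 and 46931 FPKM in WT hearts. Cfp1-cKO 1 lay above 2 of the WT libraries, and the log2 fold change of -0.23 did not pass the test (adjusted p = 0.341 from limma). The ratio of mt-Co1 to mt-Cytb was 216%, 211% and 215% in Cfp1-cKO hearts, against 247%, 226% and 224% in WT hearts, and the groups did not overlap. That of mt-Nd1 to mt-Cytb overlapped between genotypes.

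The 7 subunits of NADH dehydrogenase, complex I, had log2 fold changes between -0.44 and -0.11 for the 6 that could be tested, and none passed the test. mt-Nd1 and mt-Nd5 differed least. mt-Nd1 had 38066, 41207 and 36079 FPKM in Cfp1-cKO hearts, against 48250, 38295 and 40082 FPKM in WT hearts. mt-Nd5 had 21363, 21243 and 20357 FPKM in Cfp1-cKO hearts, against 22088, 19638 and 26506 FPKM in WT hearts. Both genes overlapped between genotypes, with adjusted p-values of 0.593 and 0.667 from limma. The log2 fold change of mt-Nd5 was at 0.01 when WT replicate 3 was left out, against -0.11 with all libraries.

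mt-Nd2 had 17109, 26150 and 20713 FPKM in Cfp1-cKO hearts, against 24610, 24117 and 25479 FPKM in WT hearts. Its Cfp1-cKO libraries spread over the whole WT range and beyond, with a coefficient of variation of 21.3% in Cfp1-cKO hearts, against 2.79% in WT hearts. mt-Nd4 had 15095, 12695 and 12528 FPKM in Cfp1-cKO hearts, against 16551, 17980 and 16484 FPKM in WT hearts, without overlap (-0.34 on the log2 scale, limma adjusted p = 0.146). mt-Nd3 had 71.5, 113.9 and 74.8 FPKM in Cfp1-cKO hearts, against 129.9, 116.0 and 101.7 FPKM in WT hearts (-0.44 on the log2 scale, limma adjusted p = 0.136). Cfp1-cKO 2 lay within the WT range for mt-Nd3, and the other 2 Cfp1-cKO libraries below it. mt-Nd4l had 0.173, 0.404 and 0.935 FPKM in Cfp1-cKO hearts, against 0.593, 1.07 and 0.935 FPKM in WT hearts, which is 1, 2 and 5 fragments in Cfp1-cKO libraries, against 4, 6 and 5 in WT libraries. It was not tested because its mean lay below 1 FPKM. A difference in mt-Nd4l was not detectable with so few fragments.

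Both members on the minus strand, mt-Nd6 and mt-Tp, were lower in every Cfp1-cKO library than in any WT library, and neither passed the test. mt-Nd6, the remaining subunit of complex I, had 8723, 13211 and 13503 FPKM in Cfp1-cKO hearts, against 14959, 13930 and 18673 FPKM in WT hearts (-0.44 ± 0.23 on the log2 scale, SE, limma adjusted p = 0.163). mt-Tp had 1266, 2657 and 2986 FPKM in Cfp1-cKO hearts, against 4719, 4184 and 3374 FPKM in WT hearts (-0.91 ± 0.32 on the log2 scale, SE, limma adjusted p = 0.0669). Cfp1-cKO 1 was the lowest library for both, and without it the log2 fold change was -0.24 for mt-Nd6 and -0.53 for mt-Tp. The ratio of mt-Nd6 to mt-Nd5, whose genes overlap by 14 bases on opposite strands, was 40.8%, 62.2% and 66.3% in Cfp1-cKO hearts, against 67.7%, 70.9% and 70.4% in WT hearts. Relative to mt-Cytb, both mt-Nd6 and mt-Tp overlapped between genotypes. mt-Nd6 was at 17.8%, 32.3% and 35.2% of mt-Cytb in Cfp1-cKO hearts, against 30.6%, 25.6% and 39.8% in WT hearts. The kit in the labels does not mark strand, so reads of mt-Nd6 and mt-Tp and reads of RNA from the opposite strand cannot be told apart.

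The 2 ribosomal RNAs had fold changes above 0 on the FPKM as deposited, of which that of mt-Rnr2 turned to below 0 after median-of-ratios scaling. mt-Rnr1, the RNA of the small ribosomal subunit, had 3733, 2793 and 1828 FPKM in Cfp1-cKO hearts, against 1531, 1744 and 1759 FPKM in WT hearts. The groups did not overlap, with Cfp1-cKO 3 just above the highest WT library, and the log2 fold change was 0.67 (standard error 0.25, 95% confidence interval 0.09 to 1.25, adjusted p = 0.0801 from limma). mt-Rnr2, the RNA of the large subunit, had 4384, 4411 and 3539 FPKM in Cfp1-cKO hearts, against 2941, 2645 and 3345 FPKM in WT hearts. These groups did not overlap either, and the log2 fold change was 0.47 (standard error 0.17, 95% confidence interval 0.07 to 0.86, adjusted p = 0.0791 from limma). Neither passed the test with all libraries. Without Cfp1-cKO replicate 3, mt-Rnr1 was called higher, at a log2 fold change of 0.95, and without Cfp1-cKO replicate 1 its value was 0.43.

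In all, 6 members were lower in every Cfp1-cKO library than in any WT library (mt-Atp8, mt-Atp6, mt-Co3, mt-Nd4, mt-Nd6 and mt-Tp), as were 3.23% of all genes tested. The 2 ribosomal RNAs were higher in every Cfp1-cKO library, as were 46.4% of all genes. The remaining 8 members overlapped. Within the Cfp1-cKO group, the order of the libraries differed between members. Replicate 1 was the lowest of all 6 libraries for 7 members (mt-Nd2, mt-Atp8, mt-Atp6, mt-Nd3, mt-Nd4l, mt-Nd6 and mt-Tp) and the highest of its group for 7 others (mt-Rnr1, mt-Co1, mt-Co2, mt-Co3, mt-Nd4, mt-Nd5 and mt-Cytb).

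The calls, and the direction of some fold changes, depend on what the libraries are scaled to. On the FPKM as deposited, 2325 genes were called higher and 185 lower over the whole table. The median of all tested genes was 0.35 on the FPKM as deposited, and -0.07 after median-of-ratios scaling, with which 355 genes were called higher and 445 lower. After this scaling 6 of the 15 members were called lower (mt-Atp8, mt-Tp, mt-Atp6, mt-Nd6, mt-Nd3 and mt-Co3) and 0 higher, where 4.04% of all genes were called lower and 3.22% higher. Of the 6 called, 4 were among the 5 tested messenger RNAs inside the chromosome 1 copy, and 1, mt-Nd6, among the 7 not inside it. With library weights 2 members were called lower (3.38% of all genes) and 1 higher (36.6%). The log2 fold changes of the 6 called after median-of-ratios scaling were between -1.55 and -0.80, with adjusted p-values between 0.00540 and 0.0443 from limma. All 12 messenger RNAs were between -1.55 and -0.65. The ribosomal RNAs stood near the median gene, at 0.13 for mt-Rnr1 and -0.08 for mt-Rnr2, so the direction of mt-Rnr2 turned.

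Scaling of whole libraries moves all members nearly alike, so their order is largely fixed, and the values are also given against the median gene of the same scaling. On the FPKM as deposited, the log2 fold changes minus that of the median gene were between -1.39 and -0.46 for the messenger RNAs, -1.26 for mt-Tp, 0.32 for mt-Rnr1 and 0.11 for mt-Rnr2. After median-of-ratios scaling they were between -1.48 and -0.58 for the messenger RNAs, -1.38 for mt-Tp, 0.20 for mt-Rnr1 and -0.008 for mt-Rnr2.

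**Figure D4:**
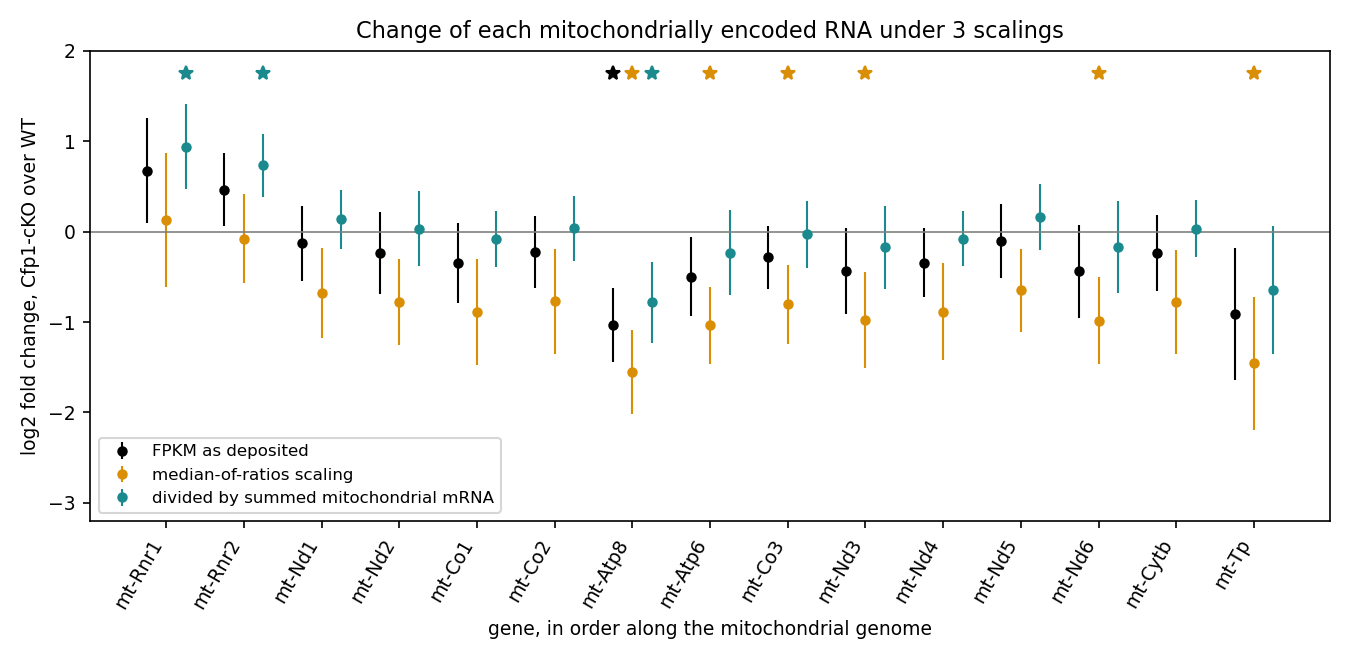
Log2 fold change of Cfp1-cKO over WT with its 95% confidence interval from limma for 15 members, on the FPKM as deposited (black), after median-of-ratios scaling (orange) and after division by the summed messenger RNAs of the mitochondrial genome (teal). A star marks a called gene: 1, 6 and 3 members under the 3 scalings.

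Members were also compared with each other, by dividing each library by the summed FPKM of the 13 messenger RNAs. On this scale mt-Rnr1 (0.94 on the log2 scale, limma adjusted p = 0.00903) and mt-Rnr2 (0.73, adjusted p = 0.00785 from limma) were called higher, and mt-Atp8 (-0.78, adjusted p = 0.0138 from limma) was called lower. The other 11 messenger RNAs tested lay between -0.23 and 0.16 and were not called, and mt-Tp was at -0.64 (adjusted p = 0.104 from limma). Relative to the messenger RNAs of the same genome the ribosomal RNAs were thus higher in Cfp1-cKO hearts, as were 50.0% of all genes on this scale, against 0.980% called lower. The ribosomal RNAs amounted to 3.17%, 2.98% and 2.39% of the summed FPKM of the messenger RNAs in Cfp1-cKO hearts, against 1.51%, 1.503% and 1.83% in WT hearts. mt-Rnr2 amounted to 11.5%, 10.7% and 9.81% of mt-Nd1, the gene downstream of it on the same strand, in Cfp1-cKO hearts, against 6.10%, 6.91% and 8.35% in WT hearts. Neither ratio overlapped between genotypes, while the ratio of mt-Rnr1 to mt-Rnr2 did.

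The nuclear genes that make, process and translate mitochondrial RNA, or replicate and maintain mitochondrial DNA, were mostly not called. Together they are named nuclear genes of mitochondrial gene expression below. Of 86 tested genes in 7 lists, 6 were called higher and 0 lower on the FPKM as deposited, where 21.1% and 1.68% of all genes were. After median-of-ratios scaling 0 were called higher and 10 lower, where 3.22% and 4.04% of all genes were. None of the 7 tested genes of transcription was called, and Tfb2m, a transcription factor that opens the mitochondrial promoters, had 23.8, 22.7 and 19.4 FPKM in Cfp1-cKO hearts, against 20.4, 20.6 and 20.6 FPKM in WT hearts. Elac2, the nuclease that cuts the 3′ ends of mitochondrial transfer RNAs, was called higher among 12 genes of RNA processing (0.71 on the log2 scale, limma adjusted p = 0.0257). Rexo2, an exonuclease that degrades short RNAs, was called higher among 7 genes of polyadenylation, stability and decay (0.74 on the log2 scale, adjusted p = 0.0277 from limma). Of 17 tested genes that modify ribosomal or transfer RNA, 3 were called higher. They were Nsun4, a methyltransferase of the small ribosomal RNA (log2 fold change 0.62), Mrm3, a methyltransferase of the large ribosomal RNA (0.59), and Gtpbp3, which modifies transfer RNAs (0.85). The other call was Mpv17, a protein of the inner membrane needed to maintain mitochondrial DNA (log2 fold change 0.61), among 12 genes of replication and maintenance. None of 17 aminoacyl-tRNA synthetases and none of 14 translation factors was called. The highest means among the synthetases were those of Fars2, for phenylalanine (log2 fold change -0.26), and Iars2, for isoleucine (-0.27), and both were called lower after median-of-ratios scaling. All 6 calls were lost after median-of-ratios scaling. At an unadjusted p below 0.05, 10 of the 86 genes were higher and 2 lower, where 40.7% and 3.09% of all genes were. Voom called 5 of 74 higher and 0 lower, against 23.3% and 1.55% of all genes. The count of 6 was 0 without Cfp1-cKO replicate 2, Cfp1-cKO replicate 3 or WT replicate 1, and 2 without Cfp1-cKO replicate 1.

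The nuclear-encoded subunits of the same complexes were called lower in Cfp1-cKO hearts in 22 of 80 tested cases by limma and higher in none, where 1.68% of all genes were called lower and 21.1% higher. After median-of-ratios scaling 35 were called lower and none higher, against 4.04% and 3.22% of all genes. At an unadjusted p below 0.05, 40 were lower and 1 higher, where 3.09% and 40.7% of all genes were. Voom called 19 of 64 lower and 0 higher, against 1.55% and 23.3% of all genes. ATP synthase had 9 of 17 called lower and a median log2 fold change of -0.53, complex IV 5 of 15 and -0.44, complex III 1 of 9 and -0.43, complex II, which has no mitochondrially encoded subunit, 2 of 4 and -0.41, and complex I 5 of 35 and -0.28. Atp5j, a subunit of the stalk of ATP synthase, had 64.4, 60.5 and 58.7 FPKM in Cfp1-cKO hearts, against 182, 194 and 137 FPKM in WT hearts (-1.45 on the log2 scale, limma adjusted p = 0.00204). Cox6a2, the heart and muscle form of a complex IV subunit, had 738, 676 and 568 FPKM in Cfp1-cKO hearts, against 1909, 2428 and 1206 FPKM in WT hearts (-1.43 on the log2 scale, limma adjusted p = 0.0113). No Cfp1-cKO library reached the lowest WT library for either gene. Atp5g1, of the membrane ring of ATP synthase (log2 fold change -1.07), and Atp5b, its catalytic subunit (-0.93), were called lower, as were Cox7b (-1.25) and Cox7a1 (-0.79) of complex IV. The called subunits of complex I with the largest fold changes were Ndufs7 (-0.73 on the log2 scale) and Ndufs1 (-0.70), which carry iron-sulfur clusters, and Ndufb11 (-0.67), of the membrane arm. Sdhd, a membrane anchor (-0.73), and Sdha, the flavoprotein (-0.53), were called in complex II, and Uqcrq (-0.80) in complex III. On the same scale, the mitochondrially encoded subunits had medians of -0.28 for complex IV and -0.29 for complex I. mt-Cytb of complex III was at -0.23. The median was -0.77 for the 2 genes of ATP synthase, which overlap each other and lie within the stretch copied on chromosome 1. Of 11 other nuclear genes that follow mitochondrial content, 1 was called lower, the outer membrane channel Vdac1 (log2 fold change -0.61), where 1.68% of all genes were. The median of the 11 was 0.03, against 0.35 over all genes. The call of Vdac1 was lost without any 1 library other than WT replicate 3, with log2 fold changes between -0.68 and -0.52. After median-of-ratios scaling 3 of the 11 were called lower, where 4.04% of all genes were, and their median was -0.48, against -0.07 over all genes. Their summed FPKM was between 2306 and 2560 in Cfp1-cKO hearts, against 2982 to 3164 in WT hearts, without overlap. The ratio of means of this sum was 0.786, while the median log2 fold change on the FPKM as deposited was near 0, at 0.03. The 22 calls became 6 without Cfp1-cKO replicate 2 or WT replicate 1 and 11 without Cfp1-cKO replicate 3.

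**Figure D5:**
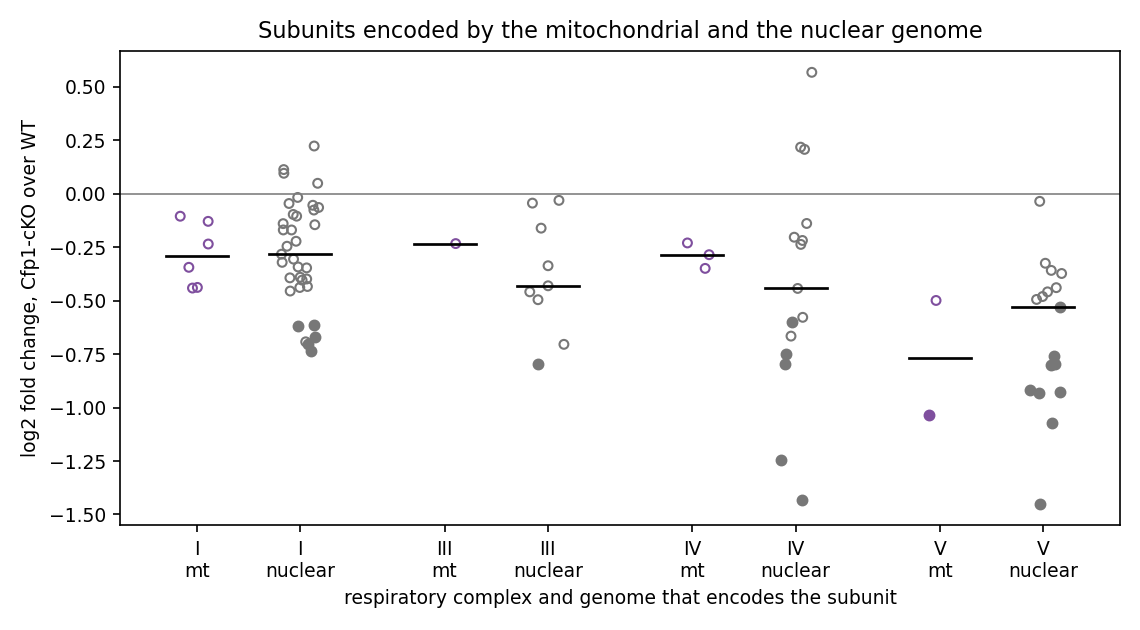
Log2 fold change of Cfp1-cKO over WT for the tested subunits of complexes I, III, IV and V encoded by the mitochondrial genome (purple, left of each pair) and by the nucleus (grey, right). Filled points were called, lines give medians, and the called subunits, all lower, were mt-Atp8 and, among the nuclear-encoded ones, 5 of complex I, 1 of complex III, 5 of complex IV and 9 of complex V.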

How the data were processed

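The libraries were made from heart RNA, 3 of Cfp1-cKO and 3 of WT mice. Per gene, FPKM values were deposited in a plain and an annotated table, identical for all 26881 genes. The submitters' processing notes list CASAVA, Bowtie2 2.2.3, TopHat2, HISAT2 2.1.0, HTSeq 0.6.0, DESeq2 and the build GRCm38, the paper gives Bowtie2 with TopHat and DESeq as tools, with the address of a chicken genome, and the order of steps is not given in the sources used here. The files held FPKM and not counts, so limma 3.58.1 in R 4.3.3, its prior variance following the mean level, tested log2(FPKM + 1) of the 11017 genes whose mean over the libraries reached 1 FPKM. Fold changes on this scale understate those of low genes.

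Fragments were worked back with gene lengths of GENCODE release 21. They came out whole, within 0.02 of a fragment, in all libraries for 89.5% of the 26787 genes matched by identifier, and for all 16 mitochondrial genes, and each share is fragments over the library total worked back from the same steps. Intervals cover the spread between libraries only. The fit was tested on simulated data.

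GENCODE transcripts were aligned to the mitochondrial genes with BLAST+ 2.17.0, keeping matches of at least 90% identity. A window of 100 bases counted as shared where an annotated nuclear transcript holds it without a mismatch. Nuclear sequence outside annotated transcripts was not used here. The sequences printed are those of the GENCODE transcripts.

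The 13 nuclear lists and 8 marker lists (cardiomyocyte, lung epithelial, erythroid, fibroblast, endothelial, macrophage, brown fat and photoreceptor), the members and the tests were chosen with earlier results of these data known. The summed FPKM of the marker lists not given elsewhere were 233 to 1892 in Cfp1-cKO and 59.8 to 1007 in WT hearts (erythroid), 406 to 601 and 253 to 335 (fibroblast), 134 to 199 and 102 to 133 (endothelial), 33.9 to 51.0 and 17.0 to 28.3 (macrophage), and 35.6 to 49.8 and 13.4 to 27.6 (brown fat). Markers higher in every Cfp1-cKO library than in any WT library were 1 of 7 (erythroid), 3 of 6 (fibroblast) and 3 of 5 (endothelial). They were 4 of 5 for macrophage and 1 of 3 for brown fat, where 46.4% of all genes tested were. Ucp1, a brown fat marker, had 0, 8.80 and 0.136 FPKM in Cfp1-cKO hearts, against 0, 0 and 2.95 FPKM in WT hearts. All mitochondrial members are accounted for. From each nuclear list, up to 3 called genes with the largest fold changes were named, or up to 2 with the highest mean where none was called. The alternatives tried were other pseudocounts, filters and scalings, no trend, library weights, a replicate block, no fold threshold, voom, and each library left out in turn. Tables and plots were made in Python 3.11.15 (numpy 2.4.6, pandas 2.3.3, matplotlib 3.10.9).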

Additional observations from a re-analysis of the deposited data

How the results depend on the processing

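mt-Atp8 was called lower under all alternatives run, and the 1 member called lower became 6 only after median-of-ratios scaling and 2 with library weights, which added mt-Tp. Members called higher numbered 0, but 2 after division by the summed mitochondrial messenger RNAs, 1 with library weights, and 0 to 1 with 1 library left out (mt-Rnr1 without Cfp1-cKO replicate 3). The cause of these changes was not tested. The sign of mt-Rnr2 turned after median-of-ratios scaling (-0.08), that of mt-Nd1 (0.14), mt-Nd2 (0.032), mt-Co2 (0.036), mt-Nd5 (0.16) and mt-Cytb (0.034) after division by the summed messenger RNAs, which removes their shared change by construction, and that of mt-Nd5 without WT replicate 3 (0.011, in a range of -0.206 to 0.011 with 1 library left out). The call of Vdac1 was also lost without a filter and after division by the summed messenger RNAs. Among uncalled nuclear genes, the sign turned after median-of-ratios scaling for Tfb2m (-0.43), Tefm (-0.002), Tufm (-0.11) and Gfm1 (-0.37), and for Tfb2m relative to the library without mitochondrial and haemoglobin genes (-0.038). The mitochondrial share of fragments in Cfp1-cKO over WT hearts was 0.840, 0.838 as summed FPKM and 0.834 of all genes in the table, and 0.804 to 0.874 with 1 library left out. That of the ribosomal RNAs was 1.45, and 1.35 to 1.60 with 1 library left out.

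Over all genes, 2325 were called higher and 185 lower. They became 1006 higher with a pseudocount of 5, 1518 and 91 without a filter, 1027 higher at a mean of at least 5 FPKM, 355 and 445 after median-of-ratios scaling, 1254 higher without mitochondrial and haemoglobin genes in the library, 5509 and 108 after division by the summed messenger RNAs, and 4027 and 372 with library weights. With 1 library left out they were 538 to 2588 higher and 50 to 201 lower, both lowest without Cfp1-cKO replicate 2. The nuclear genes of mitochondrial gene expression, 6 higher and 0 lower, became 1 higher with a pseudocount of 5, 2 higher without a filter, 3 higher at 5 FPKM, 0 higher and 10 lower after median-of-ratios scaling, 2 higher and 1 lower without mitochondrial and haemoglobin genes, 19 higher after division, 2 lower with library weights, and 0 to 7 higher and 0 to 1 lower with 1 library left out. Nuclear-encoded subunits of complexes I to V, 22 lower and 0 higher, became 14 lower without a filter, 35 lower after median-of-ratios scaling, 11 lower and 1 higher after division, 34 lower and 1 higher with library weights, and 6 to 30 lower and 0 higher with 1 library left out.

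The replicate numbers were not taken to pair the samples, since deviations of same-numbered libraries correlated at r of 0.11, 0.04 and 0.10, although every library correlated best with its own number, as a hint from the data. With the replicate number as a block, 1597 genes were called higher and 152 lower, 1 member lower and 0 higher, and 3 nuclear genes of mitochondrial gene expression higher.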
